A study of Mus musculus with 4 samples.

Results

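The genes described here encode lysosomal proteins: 40 listed genes for soluble hydrolases, their activators, proteins of the lysosomal membrane, a transcription factor of lysosomal genes and progranulin. A probe set, the group of short probes that reads a transcript on an Affymetrix array, was assigned to a member where its only gene symbol, or an older alias of it, was that of the member. This gave 91 probe sets for 39 of the 40 genes, and 38 of them had a probe set bright enough to be tested, out of 12040 genes tested in all. Cd63 was not analysed here, and Tfeb was too dim to be tested.

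The arrays came from primary cultures of C57BL6 mouse cerebral cortex. Neurons were taken from fetuses at embryonic day 16, kept in 1% fetal calf serum with 19.4 mM glucose and, by the series' design text, cultured for 7 days. Astrocytes were taken from newborn mice and, by the same text, cultured for 20 days; the protocols name 10% serum and 33 mM glucose for the plating medium. A common period close to that of the neurons is given for both cultures elsewhere in the labels. There were 2 arrays of each culture, described as biological replicates. No label says that they came from separate animals, so the p-values measure only the spread between these arrays. Donor age, medium and time in culture differed along with cell type and cannot be told apart from it. Signals below are given in the order replicate 1, replicate 2.

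Lysosomes are acidic organelles in which proteins, glycans and lipids delivered by endocytosis, phagocytosis and autophagy are broken down. Most of their soluble enzymes are tagged with mannose 6-phosphate in the Golgi and carried onward by receptors, while membrane proteins such as LAMP1 and LAMP2 form the protective lining of the organelle. In brain, the loss of single lysosomal enzymes causes storage diseases that injure neurons, and astrocytes take up and degrade debris, glycoproteins and extracellular matrix. TFEB and its relatives MITF and TFE3 bind a short E-box motif near the start of many lysosomal genes.

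The promoter sequences are shown first because this motif is what several members are known to share, and the rule that chose the members did not use it. RefSeq windows (GRCm38.p6) from 250 bases before to 50 bases after the transcript start were at hand for 36 of the 40 genes. The motif letters searched were the 6-base E-box CACGTG, its 8-base extension TCACGTGA and a 10-base form, the latter with a G before and a C after it. Each of these reads the same on both strands, and each longer form contains the shorter ones. In the 100-base stretches printed here, all upstream of the start and written 5′ to 3′ on the strand of the gene, capitals mark CACGTG. Lamp1, Ctsd, Gla, Mcoln1 and Cln3 are shown for their copies, and Lamp2, Ctsz and Ids for stretches with none.
Lamp1, chr8:13159061-13159160, plus strand: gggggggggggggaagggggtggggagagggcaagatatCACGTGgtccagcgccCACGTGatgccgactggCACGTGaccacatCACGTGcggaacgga
Ctsd, chr7:142387858-142387957, minus strand: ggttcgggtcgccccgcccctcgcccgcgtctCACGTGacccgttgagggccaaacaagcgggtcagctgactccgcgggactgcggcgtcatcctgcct
Gla, chrX:134601156-134601255, minus strand: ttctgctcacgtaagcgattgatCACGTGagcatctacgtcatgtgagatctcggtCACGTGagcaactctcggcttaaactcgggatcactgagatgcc
Mcoln1, chr8:3500419-3500518, plus strand: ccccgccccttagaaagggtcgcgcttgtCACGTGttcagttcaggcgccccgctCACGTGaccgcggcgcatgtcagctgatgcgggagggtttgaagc
Cln3, chr7:126583307-126583406, minus strand: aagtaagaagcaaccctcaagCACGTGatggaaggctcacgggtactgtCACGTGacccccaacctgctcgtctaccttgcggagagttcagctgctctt
Lamp2, chrX:38456461-38456560, minus strand: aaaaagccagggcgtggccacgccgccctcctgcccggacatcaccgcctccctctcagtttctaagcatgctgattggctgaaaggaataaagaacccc
Ctsz, chr2:174439040-174439139, minus strand: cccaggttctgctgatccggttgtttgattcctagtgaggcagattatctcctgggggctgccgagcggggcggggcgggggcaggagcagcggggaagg
Ids, chrX:70365086-70365185, minus strand: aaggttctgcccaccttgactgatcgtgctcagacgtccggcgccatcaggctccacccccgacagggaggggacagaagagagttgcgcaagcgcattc

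The 6-base E-box was found in the windows of 13 of 36 members (36.1%). Over all genes with a window it was found in 2187 of 27025 (8.09%), and over the tested genes with a window in 1128 of 9745 (11.6%). The holders were Ctsf, Ctsl, Ctsa, Ctsd, Gaa, Gla, Glb1, Naglu, Sgsh, Arsa, Lamp1, Mcoln1 and Cln3. Lamp1 held the most copies, which began at -61, -45, -28 and -15 from the start. The 8-base form was in 5 members (13.9%, against 1.12% of all genes and 2.20% of tested genes): Ctsa, Ctsd, Gla, Mcoln1 and Cln3. The 10-base form was in 1 member, Cln3 (2.78%, against 0.370% of all genes and 0.790% of tested genes). In Cln3 it lay in the window of the second listed start; the first window held no E-box. A match describes letters in a window and does not show that a factor binds there.

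**Figure D1:**
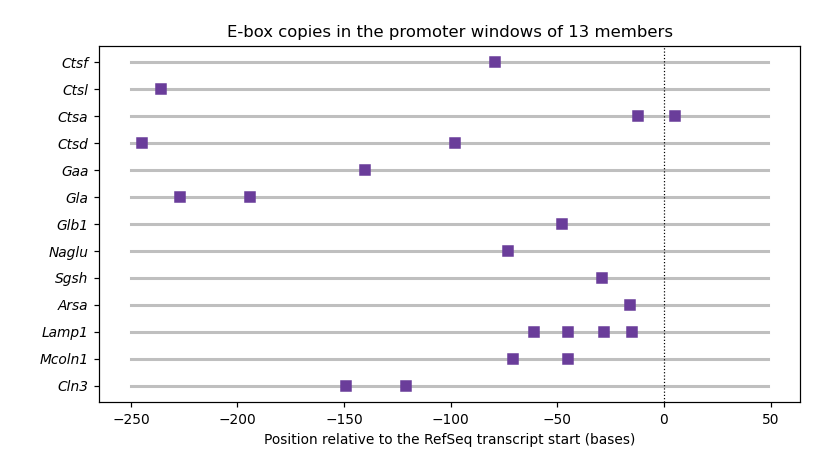
Each grey line is the promoter window of a member that holds the E-box, from 250 bases before to 50 bases after the RefSeq transcript start (dotted line), and each square marks the first base of a copy. All 13 members are drawn, Ctsa and Cln3 by their second listed start; the 4 copies of Lamp1 lie within the last 61 bases before the start.

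Most of these genes had more signal in the astrocyte cultures. Of the 38 tested members, 31 were higher in astrocytes (81.6%), where 31.1% of all tested genes were, and 1, Ids, was higher in neurons, where 31.0% of all tested genes were (62.2% in either direction). The other 6 did not pass the threshold, a Benjamini-Hochberg adjusted p of 0.05 in limma. Without the filter on dim probe sets the count was 30 of 39; with it, 2 members (Ctsh and Sgsh) were kept through the astrocyte arrays alone. Differences are on a log2(signal + 12.5) scale, and folds are taken from that scale, so for dim genes they are smaller than the plain ratio of signals. The median log2 difference (neurons minus astrocytes) was -1.17, with a middle range from -2.15 to -0.65, against a median of 0.02 over all tested genes. In 35 members every astrocyte array lay above both neuron arrays (40.5% of all tested genes), in Ids every neuron array lay above both astrocyte arrays (41.4% of all tested genes), and in Ctsk and Mcoln1 the groups overlapped. At least 2-fold higher in astrocytes were 23 members (18.8% of all tested genes) and at least 4-fold 11 members (7.26%). These cultures were measured in bulk, so fewer cells of a type and less RNA per cell cannot be told apart.

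**Figure D2:**
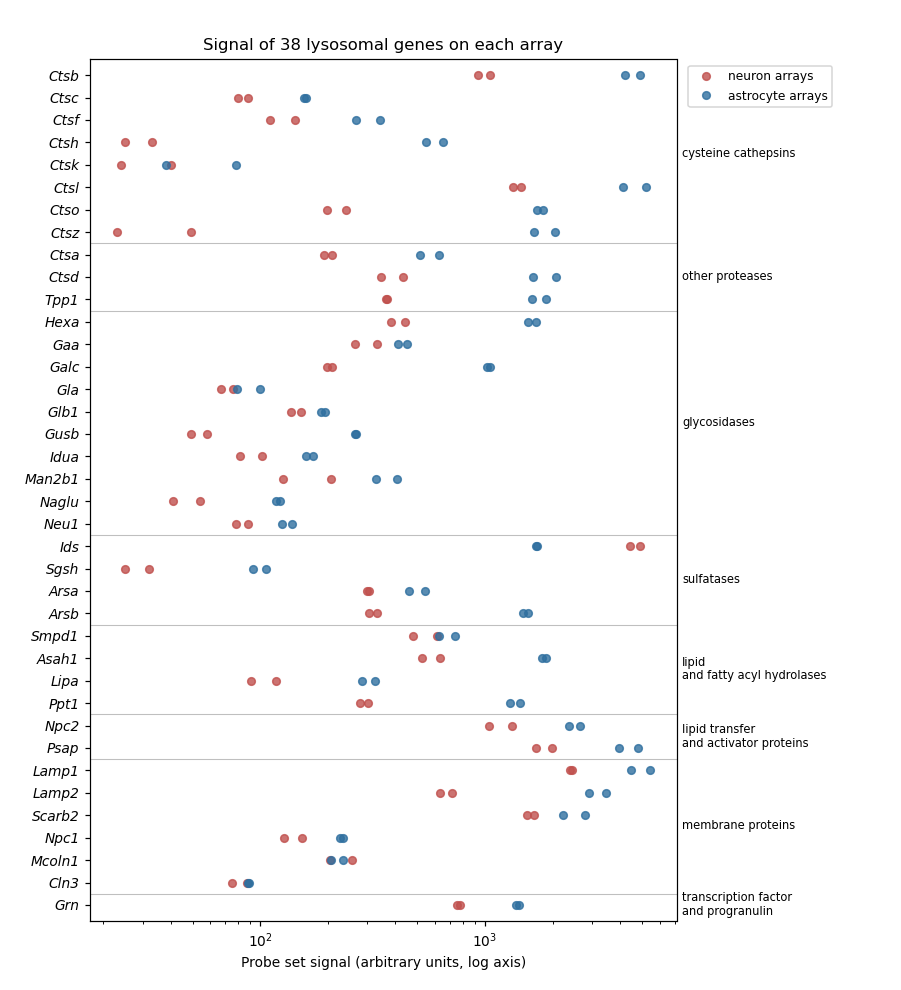
Signal of each tested member on each of the 4 arrays, on a log axis, grouped by the role of the protein; red points are neuron arrays and blue points astrocyte arrays. Blue points lie to the right of red ones in 35 members, Ids shows the opposite order, and the colours mix for Ctsk and Mcoln1.

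The cysteine cathepsins, papain-like proteases that degrade proteins in the lysosome, held the widest differences: 7 of 8 were higher in astrocytes (31.1% of all tested genes). Ctsz, which encodes the carboxypeptidase cathepsin Z, had signals of 23 and 49 in neurons and 1652 and 2052 in astrocytes. The neuron values lay close to the background, the highest signal of the Bacillus subtilis control probe sets, at 21 and 23. The log2 difference was -5.31 ± 0.25 (SE), or 39.7-fold (adjusted p = 7.61e-07). Ctsh, encoding an aminopeptidase, read 33 and 25 in neurons and 549 and 651 in astrocytes, a 14.8-fold difference (adjusted p = 7.75e-07). Ctsh was kept through the astrocyte arrays alone, so that the filter fixed its direction. Of the other 7 cysteine cathepsins, 6 were higher in astrocytes. Ctsz and Ctsh were thus near background in neurons and clearly above it in astrocytes. Ctso was at 198 and 240 in neurons against 1820 and 1708 in astrocytes (7.70-fold, adjusted p = 7.20e-07). With an offset 4 times as large the log2 differences of Ctsz and Ctsh shrank to -4.48 and -3.04, both still past the threshold.

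Ctsb and Ctsl encode the endopeptidases cathepsin B and cathepsin L, and both had signals well above background in each culture. Ctsb gave 1056 and 930 in neurons and 4189 and 4906 in astrocytes, 4.53-fold higher in astrocytes (adjusted p = 1.93e-06). Ctsl gave 1333 and 1449 against 4122 and 5205, 3.31-fold higher (adjusted p = 1.02e-05). For these abundant transcripts the neuron cultures held a measurable level, and the astrocyte arrays were above them without overlap. Ctsf, at 143 and 110 in neurons, was 2.28-fold higher in astrocytes (266 and 342). Ctsc, the dipeptidyl peptidase that activates granule serine proteases, moved from 80 and 88 to 160 and 156 (1.77-fold, adjusted p = 0.00348). Ctsk, known from bone resorption by osteoclasts, read 40 and 24 in neurons and 78 and 38 in astrocytes; the groups overlapped and it did not pass (log2 difference -0.63, 95% interval -1.37 to 0.12, adjusted p = 0.133).

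The other proteases were all 3 higher in astrocytes (31.1% of all tested genes). Ctsd, the aspartic protease cathepsin D, read 430 and 344 in neurons and 1636 and 2078 in astrocytes (4.67-fold, adjusted p = 7.08e-06). Tpp1 encodes tripeptidyl peptidase, whose loss causes a childhood form of neuronal ceroid lipofuscinosis; it read 364 and 367 against 1627 and 1872 (4.65-fold, adjusted p = 1.82e-06). Ctsa, the protective protein that stabilises beta-galactosidase and neuraminidase, read 209 and 193 against 513 and 623 (2.71-fold, adjusted p = 6.47e-05). The 2 partners that it stabilises differed less: Glb1 did not pass and Neu1 was 1.51-fold higher in astrocytes, a call that was lost with any 1 array left out.

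Glycosidases, which cut sugars from glycoproteins, glycolipids and glycosaminoglycans, were higher in astrocytes in 8 of 10 cases (31.1% of all tested genes). Galc, which removes galactose from the myelin lipid galactosylceramide, read 199 and 209 in neurons and 1023 and 1054 in astrocytes (4.86-fold, adjusted p = 1.71e-06). Gusb, encoding beta-glucuronidase, read 49 and 58 against 268 and 263 (4.22-fold, adjusted p = 1.66e-05). Hexa, the alpha subunit of beta-hexosaminidase that is lost in Tay-Sachs disease, read 381 and 440 against 1553 and 1689 (3.87-fold, adjusted p = 4.14e-06). These 3 formed the upper end of the group. Naglu, an alpha-N-acetylglucosaminidase of heparan sulfate breakdown, was 2.21-fold higher in astrocytes (41 and 54 against 122 and 117), and Man2b1, an alpha-mannosidase of glycoprotein breakdown, 2.18-fold (206 and 126 against 329 and 407). Idua, the alpha-iduronidase, was 1.72-fold higher (81 and 102 against 172 and 160). Idua and Man2b1 missed the threshold with either astrocyte array left out, with adjusted p between 0.0503 and 0.0922.

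The remaining glycosidases lay closest to equal signal. Gaa, the acid alpha-glucosidase that degrades glycogen, read 330 and 263 in neurons and 448 and 411 in astrocytes (1.44-fold, adjusted p = 0.0190), a call that was lost when neurons replicate 2 (0.112) or either astrocyte array (0.156 without replicate 1, 0.0975 without replicate 2) was left out. It was also lost without the filter on dim probe sets (0.0534) and when probe sets prone to match several transcripts were left out (0.0915). Glb1, encoding beta-galactosidase, read 152 and 137 against 186 and 195 (log2 difference -0.37, 95% interval -0.74 to -0.01, adjusted p = 0.0769). Gla, the alpha-galactosidase that is lost in Fabry disease, read 67 and 76 against 100 and 79 (log2 difference -0.27, 95% interval -0.74 to 0.19, adjusted p = 0.280). For Glb1 and Gla the arrays of the 2 cultures did not overlap, but the interval of Gla includes 0 and neither passed the adjusted threshold.

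The sulfatases held the only member that was higher in neurons. Ids, the iduronate sulfatase lost in Hunter syndrome, read 4911 and 4406 in neurons and 1688 and 1710 in astrocytes, 2.73-fold higher in neurons (log2 difference 1.45 ± 0.11, adjusted p = 7.71e-06). Its second kept probe set read 95 and 131 against 92 and 115 (log2 difference 0.11, adjusted p = 0.698), and the mean of both gave a log2 difference of 0.78 (adjusted p = 0.000569). The excess in neurons thus rested on the brighter probe set. Which transcripts of Ids each probe set reads was not tested. The other 3 sulfatases were higher in astrocytes (31.1% of all tested genes). Arsb, encoding arylsulfatase B of dermatan sulfate breakdown, read 331 and 305 against 1557 and 1485 (4.64-fold, adjusted p = 1.60e-06). Sgsh, the heparan N-sulfatase, read 32 and 25 against 106 and 93 (2.74-fold). It was kept through the astrocyte arrays alone, so that the filter fixed its direction. Arsa, which desulfates the myelin lipid sulfatide, read 306 and 300 against 459 and 540 (1.62-fold), with an adjusted p of 0.0511 without astrocytes replicate 2.

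Hydrolases of lipids and fatty acyl groups were higher in astrocytes in 3 of 4 cases (31.1% of all tested genes). Ppt1, the palmitoyl-protein thioesterase whose loss causes infantile neuronal ceroid lipofuscinosis, read 302 and 277 in neurons and 1290 and 1429 in astrocytes (4.54-fold, adjusted p = 2.17e-06). Asah1, encoding acid ceramidase, read 527 and 634 against 1804 and 1872 (3.13-fold, adjusted p = 1.12e-05). Lipa, the acid lipase of cholesteryl esters, read 118 and 91 against 283 and 324 (2.71-fold, adjusted p = 0.000177). Against these, Smpd1, the acid sphingomyelinase, had its arrays next to each other: 613 and 478 in neurons and 624 and 737 in astrocytes. It did not pass (log2 difference -0.32, 95% interval -0.68 to 0.05, adjusted p = 0.119).

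Proteins that move or present lipids showed moderate differences at high signal. Psap encodes prosaposin, the precursor of the saposins that help sphingolipid enzymes reach their substrates; it read 1981 and 1697 in neurons and 3957 and 4809 in astrocytes (2.37-fold, adjusted p = 6.83e-05). Npc2, the soluble cholesterol-binding protein, read 1043 and 1322 against 2361 and 2650 (2.12-fold, adjusted p = 0.000216). Npc1, the membrane protein that receives cholesterol from NPC2, read 127 and 154 against 234 and 227 (1.59-fold, adjusted p = 0.00776). Both genes of the cholesterol export pair were therefore higher in astrocytes. The call for Npc1 was lost when neurons replicate 1 (adjusted p = 0.0517) or either astrocyte array (0.0800 without replicate 1, 0.0699 without replicate 2) was left out.

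Among 6 tested membrane proteins, 4 were higher in astrocytes (31.1% of all tested genes). Lamp2, needed for the fusion of autophagosomes with lysosomes and for chaperone-mediated autophagy, read 630 and 711 in neurons and 3451 and 2919 in astrocytes (4.67-fold, adjusted p = 2.04e-06). Lamp1 read 2442 and 2383 against 4482 and 5424 (2.04-fold, adjusted p = 0.000112). The difference was thus 4.67-fold for Lamp2 and 2.04-fold for Lamp1; the difference between these folds was not tested. Scarb2, whose product LIMP-2 carries glucocerebrosidase to the lysosome, read 1657 and 1537 against 2219 and 2798 (1.56-fold, adjusted p = 0.00347). Its call was lost with either neuron array left out, at adjusted p = 0.0569 without replicate 1 and 0.0826 without replicate 2.

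Mcoln1, the lysosomal calcium channel, had overlapping groups, with 255 and 204 in neurons and 206 and 233 in astrocytes (log2 difference 0.06, 95% interval -0.33 to 0.44, adjusted p = 0.801). Cln3, a membrane protein lost in juvenile neuronal ceroid lipofuscinosis, depended on the probe set. The brighter one read 75 and 87 in neurons and 89 and 88 in astrocytes (log2 difference -0.11, 95% interval -0.55 to 0.32, adjusted p = 0.634). The other read 43 and 44 against 93 and 145 (log2 difference -1.20, adjusted p = 0.00254). Their mean gave a log2 difference of -0.66 (adjusted p = 0.0121), and without neurons replicate 2 the dimmer probe set became the one read for the gene (-1.22, adjusted p = 0.0502).

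**Figure D3:**
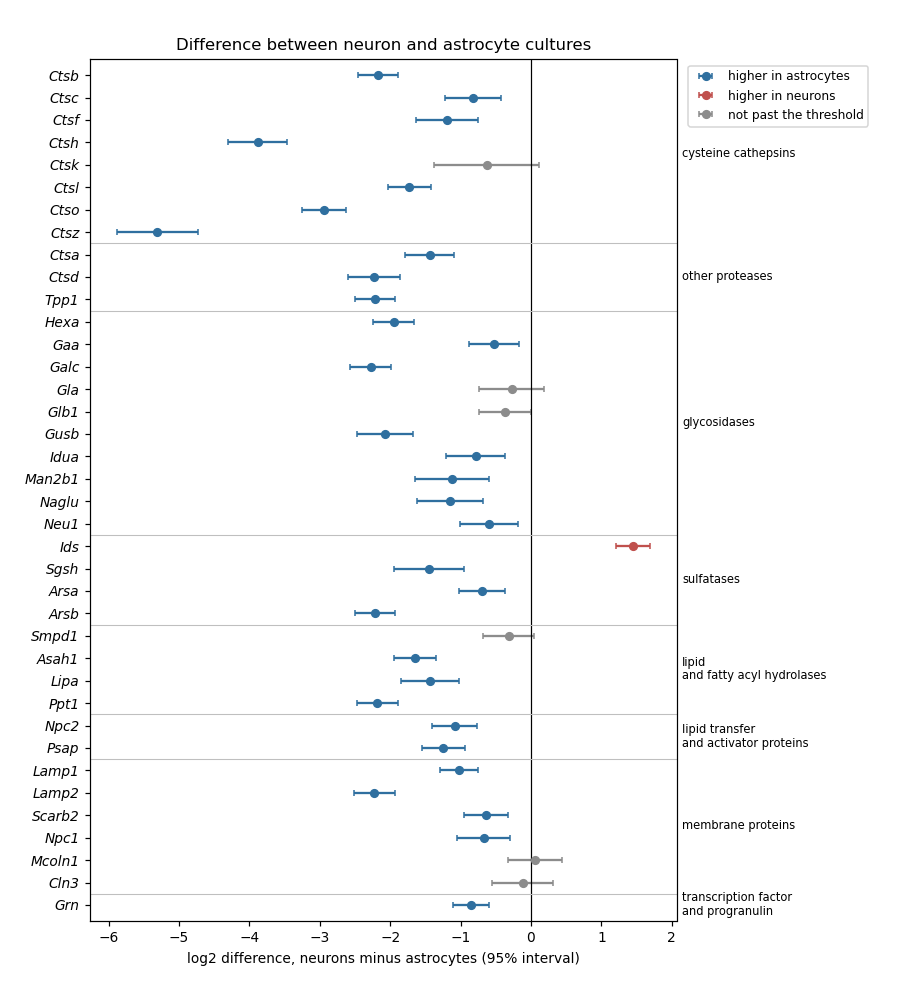
Log2 difference of each tested member, neurons minus astrocytes, with its 95% interval from limma; blue members were higher in astrocytes, red in neurons, and grey did not pass the threshold. The points run from -5.31 for Ctsz to 1.45 for Ids, and the grey members are Ctsk, Gla, Glb1, Smpd1, Mcoln1 and Cln3.

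Grn encodes progranulin, a secreted protein that reaches the lysosome and whose loss causes frontotemporal dementia or, when complete, a ceroid lipofuscinosis. It read 775 and 754 in neurons and 1370 and 1421 in astrocytes, 1.81-fold higher in astrocytes (adjusted p = 0.000234). Its 3 kept probe sets had log2 differences from -0.86 to -0.55, and 2 of them passed. Those 2 are of the kind prone to match several transcripts. The third read 282 and 190 in neurons against 304 and 389 in astrocytes (limma adjusted p = 0.0526). With probe sets of that kind left out of the fit, the third was the one read for the gene (adjusted p = 0.0484). The single probe set of Tfeb read 26 and 25 in neurons and 27 and 54 in astrocytes, below the array medians on 3 of 4 arrays, and no difference is given for it.

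Read by the substrate they act on, members of a shared pathway did not all differ alike; these groupings were made after the values were seen and have no test. Of 6 enzymes of heparan and dermatan sulfate breakdown, Idua, Sgsh, Naglu, Gusb and Arsb were higher in astrocytes (31.1% of all tested genes). Ids, which acts just before Idua on the same sugar, was higher in neurons (31.0% of all tested genes). Hgsnat, the acetyltransferase acting between Sgsh and Naglu, was 1.62-fold higher in astrocytes and did not pass when neurons replicate 2 (adjusted p = 0.0592) or astrocytes replicate 1 (0.0748) was left out; it and Gm2a were named after their values were seen. Of 9 genes of sphingolipid breakdown, 6 were higher in astrocytes (Hexa, Galc, Arsa, Neu1, Asah1 and Psap), where 31.1% of all tested genes were. Gla, Glb1 and Smpd1 did not pass. Gm2a, the activator that presents ganglioside to beta-hexosaminidase, was 1.80-fold higher in astrocytes (adjusted p = 0.000426).

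Several members are read by more than 1 probe set, which gives a check that shares the same RNA. Over the 69 kept probe sets of the members, 52 were higher in astrocytes, 1 was higher in neurons and 16 did not pass. By gene, 31.1% of all tested genes were higher in astrocytes and 31.0% in neurons. The share over all kept probe sets was not computed. Of 21 members with several kept probe sets, 10 had every one of them higher in astrocytes: Ctsb, Ctsh, Ctsz, Gusb, Lamp2, Lipa, Npc2, Psap, Scarb2 and Tpp1. Some of these probe sets were below the array median on both neuron arrays, among them those of Ctsh and dimmer ones of Ctsb, Ctsz, Gusb and Lipa. They were kept through the astrocyte arrays alone, so their direction adds no check. The 5 probe sets of Ctsb ranged from -3.01 to -0.90, the 4 of Lamp2 from -2.22 to -1.82 and the 3 of Ctsz from -5.31 to -3.82. For Arsb (-2.21 and -0.35), Ctsl (-1.73 and -0.51) and Ctsa (-1.44 and -0.32) a second, dimmer probe set did not pass. The same held for Idua (-0.79 and -0.37) and Gaa (-0.52 and -0.41). In Ppt1, 1 of 3 probe sets did not pass (-0.19, with the others at -2.18 and -2.05). Averaging probe sets gave log2 differences of -1.28 for Arsb, -1.12 for Ctsl, -1.48 for Ppt1, -1.49 for Gusb and -4.45 for Ctsz, all past the threshold. No kept probe set of a member was called in the direction opposite to that of its main probe set.

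**Figure D4:**
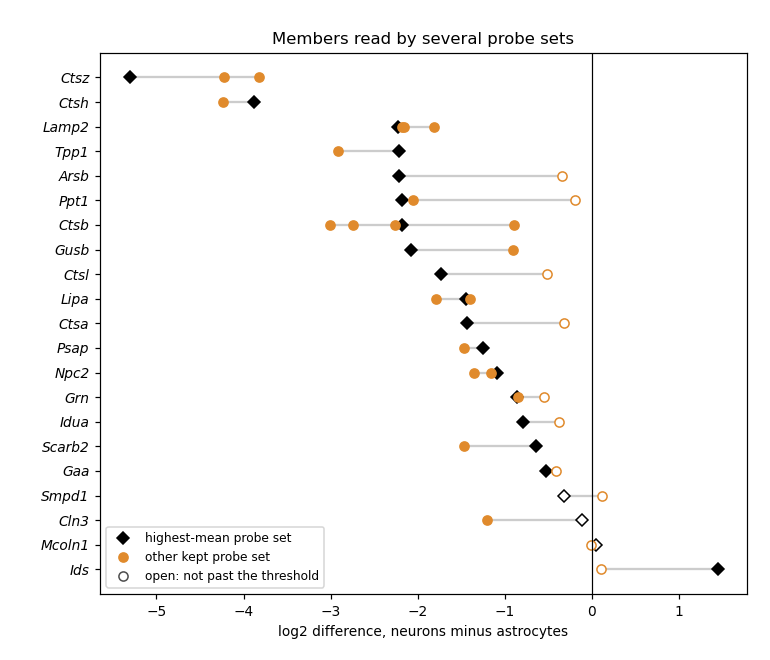
Log2 difference, neurons minus astrocytes, of every kept probe set of the 21 members with more than 1; diamonds are the probe set with the highest mean, circles the others, and open symbols did not pass the threshold. Lamp2, Npc2 and Lipa have closely spaced probe sets, while Arsb, Ppt1, Cln3 and Ids have 1 probe set near 0.

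Members with and without an E-box in the promoter window were both mostly higher in astrocytes, where 31.1% of all tested genes were. With it, 9 of 13 were higher in astrocytes, with a median log2 difference of -1.03 (from -2.22 to 0.06). Without it, 18 of 21 tested members with a window were higher in astrocytes, with a median of -1.24 (from -5.31 to 1.45). Lamp1, with 4 copies, differed 2.04-fold, and Mcoln1, with 2 copies and the 8-base form, did not pass. Lamp2 and Ctsz, whose printed stretches hold no copy, were 4.67-fold and 39.7-fold higher in astrocytes. Examples of the other kind were seen as well. Ctsd, with 2 copies and the 8-base form, was 4.67-fold higher in astrocytes. Ids, whose window holds no copy, was 2.73-fold higher in neurons. The difference between these sets was not tested.

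Other genes of the pathway were counted from lists put together without the members. Of 29 other lysosomal hydrolases 21 were tested, and 15 were higher in astrocytes (71.4%, against 31.1% of all tested genes) and 0 in neurons, with a median log2 difference of -1.39; without the filter on dim probe sets the count was 15 of 23. The largest differences were those of Cpq, a carboxypeptidase (61 and 57 in neurons, 1413 and 1301 in astrocytes, 19.1-fold), and Ctss, the cathepsin best known from microglia and macrophages, which was kept through the astrocyte arrays alone. Ctss read 3 and 28 in neurons and 295 and 272 in astrocytes (11.8-fold); its log2 difference was -3.56, or -2.87 without neurons replicate 1, -4.25 without neurons replicate 2, -2.37 with an offset 4 times as large and -4.72 with an offset of 1. Of 29 other lysosomal membrane proteins 23 were tested, and 13 were higher in astrocytes (56.5%) and 1 in neurons, with a median of -0.58; without the filter 12 of 28 were higher in astrocytes and 2 in neurons. Slc66a1, among the 13, was kept through the astrocyte arrays alone. Glmp, the partner of the transporter MFSD1, was 3.50-fold and Mfsd1 itself 3.06-fold higher in astrocytes. Slc36a1, a proton-coupled amino acid transporter, was 2.12-fold higher in neurons, a call lost when neurons replicate 1 (adjusted p = 0.0576) or astrocytes replicate 2 (0.0776) was left out. With 1 array left out, 7 to 10 membrane proteins were higher in astrocytes, the lowest count without astrocytes replicate 1, and 8 without neurons replicate 2 or astrocytes replicate 2.

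**Figure D5:**
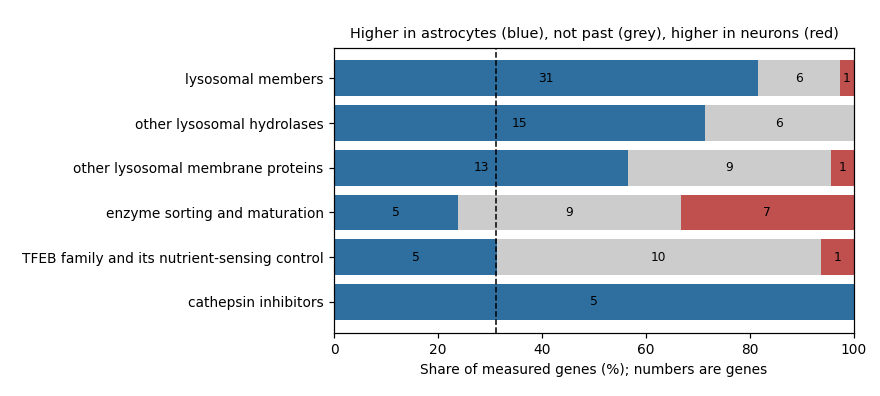
Share of tested genes higher in astrocytes (blue), not past the threshold (grey) and higher in neurons (red) in the members and in 5 lists of related genes, with the number of genes on each bar; the dashed line marks the 31.1% of all tested genes that were higher in astrocytes. The blue bars of members, other hydrolases and other membrane proteins end to the right of the line, at 31, 15 and 13 genes, and the list of sorting and maturation genes has 5 in astrocytes and 7 in neurons.

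Of 21 tested genes that tag, mature and sort lysosomal enzymes, 5 were higher in astrocytes (23.8%) and 7 in neurons (33.3%), shares near the 31.1% and 31.0% of all tested genes, with a median of -0.09. Without the filter 4 of 22 were higher in neurons; with 1 array left out the count in neurons fell to 3, 2, 3 and 4 (without neurons replicate 1, neurons replicate 2, astrocytes replicate 1 and astrocytes replicate 2). Sumf1, the enzyme that activates all sulfatases, read 94 and 108 in neurons and 689 and 613 in astrocytes (5.85-fold, adjusted p = 2.42e-06). Sorl1, a sorting receptor, was 5.33-fold higher in astrocytes. M6pr, the small receptor for mannose 6-phosphate and named after its values were seen, read 300 and 341 against 1623 and 1586 (4.86-fold). On the side of the neurons, Ap3b2, the neuronal form of an adaptor subunit, was 4.39-fold higher (229 and 195 against 36 and 41). Gnptab, which starts the mannose 6-phosphate tag, was 2.16-fold higher in neurons (357 and 399 against 203 and 139). Its call was lost without neurons replicate 2 (adjusted p = 0.0514) and when its probe sets were averaged (log2 difference 0.48, adjusted p = 0.0520).

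Of 16 tested genes of the TFEB family and of its nutrient-sensing control, 5 were higher in astrocytes (31.2%, where 31.1% of all tested genes were), 1 (6.25%) in neurons, and 10 missed the threshold; the median was -0.19. Without the filter on dim probe sets 3 of 17 were higher in astrocytes. With 1 array left out, the count in astrocytes was 2 without neurons replicate 2 and 3 in each of the other cases. Mitf, a relative of Tfeb, read 36 and 33 in neurons and 251 and 268 in astrocytes (5.79-fold, adjusted p = 6.05e-06; log2 difference -2.53, and -1.87 with an offset 4 times as large). Tfe3, the other relative and named after its values were seen, read 143 and 150 against 165 and 157 (log2 difference -0.13, 95% interval -0.49 to 0.24, adjusted p = 0.531). Rragc, a subunit of the Rag complex that recruits mTORC1 to the lysosome, was 1.69-fold higher in astrocytes. Fnip2, the folliculin partner, was 1.72-fold higher in neurons, which was lost when replicate 2 of the neurons (adjusted p = 0.0603) or of the astrocytes (0.0615) was left out.

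Of 6 listed inhibitors of cathepsins 5 were tested, and these 5 were higher in astrocytes, where 31.1% of all tested genes were. Serpina3n and Cst6 were kept through the astrocyte arrays alone, so that the filter fixed their direction; the other 3 were higher in astrocytes, as were 5 of 6 without the filter. With either astrocyte array left out 3 were tested, and all 3 were higher in astrocytes. Serpinb6a, an intracellular serpin, was 6.97-fold higher (250 and 287 against 1684 and 2239, adjusted p = 1.98e-06). Serpina3n was not above background in neurons (6 and 4) and read 36 and 76 in astrocytes, at least 2.55-fold higher. Cst3, encoding the secreted inhibitor cystatin C and named after its values were seen, read 4952 and 5872 against 9985 and 11301 (1.97-fold).

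Several markers of microglia and of fibroblasts were among the genes with more signal in the astrocyte cultures, those of microglia at low signal. Summed over 16 microglial markers, the signal was 240 and 276 in neurons and 831 and 891 in astrocytes. Only 8 were bright enough to be tested, 7 of them through the astrocyte arrays alone, so the number that passed is not read here. C1qa read 2 and 2 in neurons and 124 and 156 in astrocytes, and Csf1r, the marker also bright enough in neurons, read 47 and 40 against 149 and 151. The reverse order was seen at low signal for Spi1 (25 and 35 against 18 and 15) and Itgam (12 and 15 against 8 and 4). Aif1 read 13 and 25, P2ry12 16 and 21 and Itgam 8 and 4 on the astrocyte arrays, where the background was 17 and 15, and 10 of the 16 markers were not above background on either neuron array. The part of microglia in the cathepsin and hydrolase differences was not tested. For 9 fibroblast and meningeal markers the sums were 549 and 593 in neurons and 4686 and 4823 in astrocytes, with Islr alone at 2465 and 2689 in astrocytes. Of the 9, 7 were higher in astrocytes (31.1% of all tested genes), 4 of these 7 kept through the astrocyte arrays alone. Lum, kept through the neuron arrays alone, was higher in neurons (40 and 45 against 23 and 17). Dcn did not pass (290 and 391 against 255 and 261). The part of fibroblasts in the result was not tested either. Most defining markers differed in the direction of the labels. The 10 neuron markers were all higher in neurons, 4 of them kept through the neuron arrays alone (summed signal 33756 and 33637 against 3154 and 2956). Snap25 and Dcx were not above background in astrocytes, but Map2 read 1487 and 1269 there and Stmn2 1465 and 1485. Of 10 astrocyte markers 8 were higher in astrocytes and 1, Slc1a2, in neurons, and S100b did not pass. The sums were 6520 and 6862 in neurons and 18393 and 18632 in astrocytes. Gja1, among the 8, read 1623 and 1715 in neurons against 2845 and 2645, and Slc1a3 1138 and 1258 against 3557 and 3693. For 8 oligodendrocyte lineage markers the sums were 5688 and 4913 against 5544 and 6133; 4 of 7 tested were higher in neurons, 3 of them kept through the neuron arrays alone, and 2 in astrocytes. Pdgfra read 1177 and 1302 against 19 and 21 and Mbp 420 and 431 against 16 and 16. The other way, Cnp read 366 and 500 against 1344 and 1536, and Olig1 2899 and 1895 against 3500 and 3997. Olig2 did not pass (663 and 642 against 617 and 508). Of 6 endothelial markers 5 were too dim to be tested.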

How the data were processed

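The deposited table holds linear intensity values per probe set, summarised by the authors with MAS5 according to the submitters' processing notes (version not given in those sources). They are whole numbers, and the 2% trimmed mean of each array was 150. RNA was labelled from 50 ng through 2 rounds of cDNA synthesis, per the labels' protocols. Control probe sets were left out. Symbols came from the platform annotation and were updated by Entrez identifier; probe sets with several symbols named no gene.

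Signals were kept as deposited and taken as log2(signal + 12.5), the offset being the median of the arrays' 25th percentiles. Probe sets at or above the array median on 2 or more of 4 arrays were kept, 25019 in number. Both groups were compared on the whole table with limma 3.58.1 in R 4.3.3 (mean-variance trend, two-sided, Benjamini-Hochberg, 2 residual degrees of freedom, prior 6.27). The test was checked on simulated data whose variances followed the model that limma assumes. That check cannot show whether the present data meet the model. Array number limits the precision. Each gene is represented by the brightest of its kept probe sets. Background is the highest of 27 Bacillus subtilis control probe sets, between 15 and 23 on the arrays; where both arrays of a group are at or under it, the fold is "at least", against the mean background, computed without the offset. The share of probe sets above it was 61.4% to 66.9%, replicates correlated at 0.977 and 0.978 across probe sets (0.827 to 0.834 between groups), and the 3′ to 5′ ratio of Actb was 1.44 to 1.49.

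All members are named; from each related list, the 2 largest called differences in each direction. Members and lists were chosen with earlier results of these data known, so their counts are descriptions. No explanation was tested.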

Additional observations from a re-analysis of the deposited data

How the results depend on the processing

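Over 13 alternatives the number of members higher in astrocytes stayed within 1.5 times of 31, and Ids stayed the 1 member higher in neurons. With 1 array left out, 23 to 28 members were higher in astrocytes. With either astrocyte array left out 36 members had a value, and with either neuron array left out 38 did. The share over all tested genes was not computed for these fits. The median log2 difference of the members was -1.01 with an offset 4 times as large and -1.34 with the filter at the 75th percentile. It lay between -1.36 and -1.03 with 1 array left out. Of 32 called members, 25 stayed past the threshold in every alternative that gave them a value; the 7 others were Gaa, Neu1, Scarb2, Npc1, Idua, Man2b1 and Arsa. Mcoln1, not called in any of these, changed sign: its log2 difference lay between -0.10 (without neurons replicate 1) and 0.21 (without neurons replicate 2) with 1 array left out, and was -0.0016 when probe sets ending in _x_at or _s_at were left out. Averaging the probe sets of a gene brought Cln3 past the threshold (adjusted p = 0.0121). In the same fit Glb1 also passed (0.0491), although it has 1 probe set and its log2 difference stayed at -0.37. Where a call was lost, the cause was not tested, other than that a left-out array leaves fewer samples. The titles give the replicates the same numbers in both cultures, but deviations of same-numbered arrays correlated at only -0.0901, so the numbers are not taken to pair the arrays. With the replicate number as a block, 31 members were higher in astrocytes and 1 in neurons, at the same median of -1.17, and 7404 genes were called against 7486. The counts of related genes were less stable: without the filter on dim probe sets 4 sorting genes were higher in neurons, as without the mean-variance trend. Members near background, such as Ctsh and Ctsz in neurons, have folds that depend on the offset.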
